A study of Mus musculus with 24 samples.

Results

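The genes described here encode the protein machinery that binds nascent transcripts and removes introns. They are the protein-coding genes whose symbols begin with Srsf, Hnrnp, Sf3a, Sf3b, Snrpa, Snrpb, Snrpc, Snrpd, Snrpe, Snrpf or Snrpg and whose mean over all libraries was above 10 normalized counts. In the GENCODE vM21 annotation 51 protein-coding genes carry such a symbol, and all 51 were listed in the expression table and passed the minimum, of 16247 genes that did so and 37315 genes in all. They comprised 11 SR proteins, 20 hnRNPs, 9 SF3a and SF3b subunits, 4 specific proteins of the U1 and U2 snRNPs and 7 Sm core proteins. All 51 entered every test below.

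RNA was sequenced from 12 populations with 2 libraries each, all from the PaX system, a female M. musculus/M. castaneus hybrid mouse line with a GFP reporter inserted into Hprt of the X chromosome inherited from M. musculus (X mus), a Tsix truncation and a doxycycline-inducible cassette of the MKOS reprogramming factors. The populations were ESCs grown in serum/LIF on gelatin, NPCs sorted as SSEA1-, P-RFP- and X-GFP- and grown with EGF and bFGF, and NPCs reprogrammed with doxycycline on feeders, which were irradiated male embryonic fibroblasts, and sorted at day 2, day 5 and day 7 of reprogramming. Day 2 cells were sorted as negative for CFSE, the dye of the feeders, whereas day 5 and day 7 cells were enriched for SSEA1, and day 7 cells were divided by X-GFP into negative, medium and high populations, called X-GFP-negative cells and so on here. IFNγ-treated cells received 10 ng/ml of IFNγ from day 0 to day 5, and control cells received none, so day 7 cells had been without added IFNγ since day 5. All libraries derive from this single line. The methods of the study call the 2 libraries of a population independent replicates without saying what was repeated, and the labels do not name separate cultures, so p-values measure the spread between these libraries, whatever its source.

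Each library held between 24746109 and 37056508 reads on genes. The 37 mitochondrial genes took 9.96% to 20.7% of the normalized counts, least in the ESC libraries and most in the day 7 X-GFP-negative control libraries. The labels were checked with marker genes. The summed normalized count of 6 ESC markers was 144090 and 136820 in the ESC libraries against 96.3 and 63.3 in the NPC libraries, and that of 7 NPC markers was 48435 and 44166 in NPCs against 665 and 718 in ESCs. The summed count of 4 Y-linked genes, which the female line lacks, was 252.6 and 218 in day 2 control cells, 125 and 223 in day 2 IFNγ-treated cells, and at most 12.5 in any other library. A list of 8 fibroblast genes was likewise high in day 2 control cells, at 61408 and 41396, and in NPCs, at 30196 and 43108. In day 2 IFNγ-treated cells its sum was 30729 and 25195.

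Introns are removed by the spliceosome, a large ribonucleoprotein built from small nuclear RNAs and proteins. The Sm proteins form a ring around the spliceosomal small nuclear RNAs, the U1 snRNP recognizes the 5′ splice site, and the SF3a and SF3b complexes belong to the U2 snRNP, which binds the branch point. SR proteins bind exonic enhancers and promote the use of nearby splice sites, and hnRNPs package nascent RNA and often act on the same sites in the opposite direction, so that the balance of these proteins shapes alternative splicing, which differs widely between pluripotent and neural cells.

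To show the genomic context of genes that the results turn on, the 250 bases before the transcription start are given for Srsf1, Srsf2 and Srsf9, SR protein genes with large differences at day 7, and for Sf3b2, the member with the smallest range of levels. Sequences and starts are from RefSeq on GRCm38.p6, read 5′ to 3′ on the strand of the gene. Each window lies outside the annotated gene, next to its first exon. Capitals mark matches on either strand to the GC box GGGCGG, the CCAAT box CCAAT, the ETS motif CCGGAAG and the E-box CACGTG, where adjacent matches may overlap.
Srsf1, chr11:88047123-88047372, plus strand: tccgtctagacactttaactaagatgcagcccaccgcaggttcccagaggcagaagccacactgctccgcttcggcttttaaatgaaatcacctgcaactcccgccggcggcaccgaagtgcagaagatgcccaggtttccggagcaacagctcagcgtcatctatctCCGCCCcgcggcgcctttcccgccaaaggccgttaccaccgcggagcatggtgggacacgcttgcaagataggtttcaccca
Srsf2, chr11:116853095-116853344, minus strand: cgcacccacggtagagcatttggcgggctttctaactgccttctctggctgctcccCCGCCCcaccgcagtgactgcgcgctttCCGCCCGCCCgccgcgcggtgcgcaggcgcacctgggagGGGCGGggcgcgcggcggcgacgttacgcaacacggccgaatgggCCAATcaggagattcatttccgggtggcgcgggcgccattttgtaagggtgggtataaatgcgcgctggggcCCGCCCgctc
Srsf9, chr5:115326927-115327176, plus strand: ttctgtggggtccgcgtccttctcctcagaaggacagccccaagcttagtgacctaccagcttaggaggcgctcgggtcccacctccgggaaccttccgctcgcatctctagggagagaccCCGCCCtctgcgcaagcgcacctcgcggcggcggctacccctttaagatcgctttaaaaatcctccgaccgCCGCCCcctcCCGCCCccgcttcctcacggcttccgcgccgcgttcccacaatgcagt
Sf3b2, chr19:5295458-5295707, minus strand: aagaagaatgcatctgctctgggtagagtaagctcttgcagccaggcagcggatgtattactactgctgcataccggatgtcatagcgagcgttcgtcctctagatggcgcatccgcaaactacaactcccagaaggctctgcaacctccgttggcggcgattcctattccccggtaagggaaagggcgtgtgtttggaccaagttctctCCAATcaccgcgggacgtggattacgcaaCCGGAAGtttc
The GC box occurred 1 time in the Srsf1 window, 5 times in Srsf2 and 3 times in Srsf9, and the Sf3b2 window held 1 ETS motif and 1 CCAAT box. The E-box was found in none of the 4. The identifiers in the deposited table are ENSMUSG00000018379 for Srsf1, ENSMUSG00000034120 for Srsf2, ENSMUSG00000029538 for Srsf9 and ENSMUSG00000024853 for Sf3b2.

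RefSeq windows were at hand for 45 of the 51 members, 59 windows in all because several genes have more than 1 start. Windows of Snrpd1, Snrpb, Hnrnpll, Sf3b5, Hnrnpul2 and Sf3b4 were not used here. The GC box was found in 13 of 14 windows of SR protein genes (92.9%), 20 of 27 of hnRNP genes (74.1%) and 42 of 59 of all members (71.2%), against 32.7% of 32851 windows of all genes. The ETS motif was found in 7 of 8 windows of SF3a and SF3b genes (87.5%) and 19 of 59 of all members (32.2%), against 6.91% of all windows. The CCAAT box was found in 17 of 27 hnRNP windows (63.0%) and 26 of 59 member windows (44.1%), against 33.9% of all windows. The E-box was found in 5 of 59 member windows (8.47%) and 6.02% of all windows. These counts describe the sequence letters only.

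The 51 genes together took between 0.785% and 1.54% of the normalized counts of a library. Their share was highest in NPCs, at 1.54% and 1.44%, and in ESCs, at 1.48% and 1.49%. Control cells had 1.08% and 1.18% at day 2 and 1.11% and 1.21% at day 5, and the share was lowest in day 7 X-GFP-negative control cells, at 0.785% and 0.802%. X-GFP-medium control cells followed at 0.887% and 0.907%, and X-GFP-high control cells stood at 1.07% and 1.12%. In the IFNγ-treated cells of day 7 the share was 1.02% and 1.08% in the negative, 1.08% and 1.11% in the medium and 1.18% and 1.33% in the high population, so that no treated library overlapped with the control libraries of its own population.

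**Figure D1:**
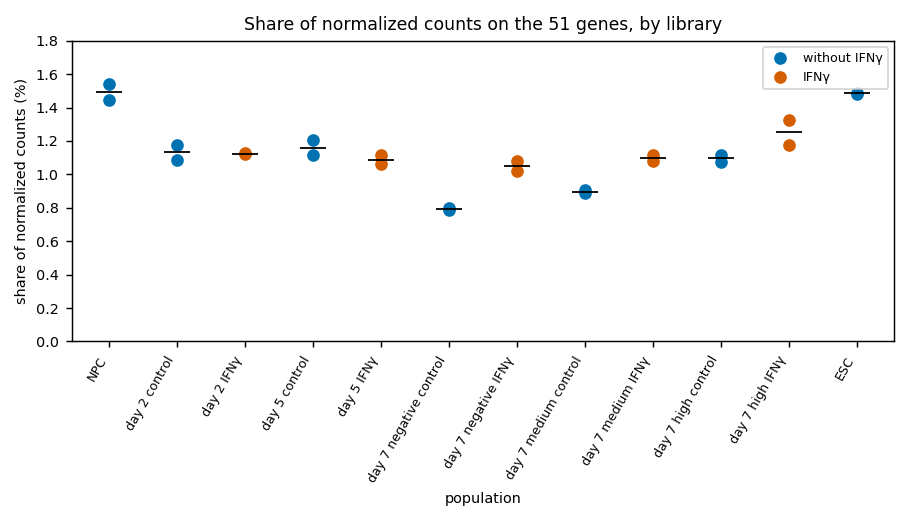
Share of the normalized counts of each library that fell on the 51 genes, in percent, for the 12 populations in the order of reprogramming (points, single libraries, blue without IFNγ and orange with IFNγ; bars, mean of 2 libraries). The lowest points are the day 7 X-GFP-negative control libraries at 0.785% and 0.802%, and the highest are NPC and ESC libraries.

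Single members followed 1 of several patterns. The highest mean was in ESCs for 28 of the 51 genes, in NPCs for 11, in day 5 control cells for 6, in day 7 X-GFP-high IFNγ-treated cells for 3, in X-GFP-medium IFNγ-treated cells for 2 and in day 5 IFNγ-treated cells for 1. The lowest mean was in day 7 X-GFP-negative control cells for 33 genes and in day 2 control cells for 8. When the libraries were rescaled to the same nuclear total, which leaves out mitochondrial genes, the highest population stayed the same for 41 genes and the lowest for 41, and ESCs were highest for 18. Per kb of merged exons, a measure that allows genes to be compared, the mean over all libraries was largest for Hnrnpab with 5159 normalized counts, Hnrnpa1 with 4211 and Hnrnpk with 3371, and smallest for Srsf12 with 16.3.

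The widest range belonged to Srsf12, an SR protein gene with a low level in most populations, whose highest mean was 13.0 times its lowest. The ratio was 4.33 for Srsf1, the founding SR protein, 3.66 for Sf3b3, 3.54 for Hnrnph1 and 3.10 for Hnrnpm. It was smallest for Sf3b2, at 1.24, Hnrnpul1, at 1.27, and Srsf11, at 1.39. Reads of some members could also be placed elsewhere. Of the 50-base windows of their transcripts, 43.6% in Sf3b4, 36.8% in Hnrnpf, 28.2% in Hnrnpa1, 27.1% in Hnrnpa3 and 21.3% in Snrpf also occurred in a transcript of another annotated gene, so the levels of these genes are less certain. Hnrnpm overlaps March2 on the same strand, which adds to the uncertainty of its count.

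**Figure D2:**
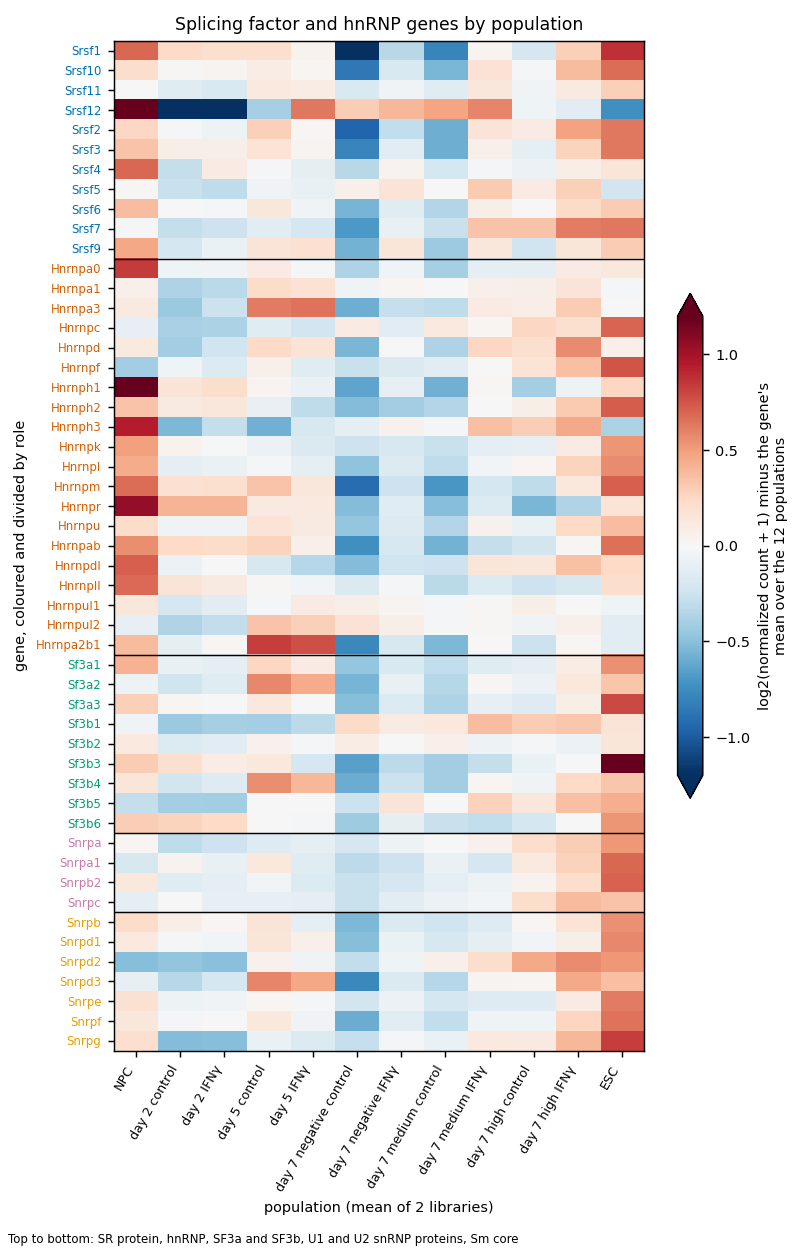
Level of each of the 51 genes in the 12 populations, as log2(normalized count + 1) of the population mean minus the mean of the gene over the 12 populations (red, above; blue, below; colours saturate at 1.2). Rows are divided by role, from SR proteins at the top to Sm core proteins at the bottom. Most rows are red in NPCs or ESCs and blue in day 7 X-GFP-negative control cells, which held the lowest mean for 33 genes.

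To ask how the genes differ between the pluripotent and the neural state, ESCs were compared with NPCs. At an adjusted p below 0.1 in limma, 28 of 51 members were higher in ESCs and 12 lower, where 42.2% of all 15911 genes tested were higher and 43.4% lower. The median log2 fold change of the members was 0.18, against -0.03 over all genes. This split depended on scaling. With libraries rescaled to the same total it was 22 higher and 15 lower, and with the same nuclear total 21 and 20, because the median of all genes moved to -0.16 and -0.22, and with the same nuclear total the median of the members was -0.0038. Relative to that median the members lay 0.21, 0.21 and 0.22 higher in the 3 scalings.

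The snRNP genes were the uniform group in this comparison. All 7 Sm core genes (Snrpb, Snrpd1, Snrpd2, Snrpd3, Snrpe, Snrpf and Snrpg) and all 4 genes of U1 and U2 proteins (Snrpa, Snrpc, Snrpa1 and Snrpb2) were higher in ESCs, with log2 fold changes from 0.33 to 1.03 and from 0.47 to 0.88. Snrpd2, an Sm ring protein, had 3335 ± 289 normalized counts in ESCs and 1635 ± 38.3 in NPCs (SD, n = 2 each), and its log2 fold change was 1.03 ± 0.08 (SE, limma adjusted p = 6.1e-05). For Snrpa1, the U2 A′ protein, the log2 fold change was 0.88 ± 0.06 (limma adjusted p = 4.1e-05). The same 11 genes passed as higher after either rescaling. Of the 9 SF3a and SF3b genes 7 were higher and none lower. After either rescaling 4 were higher, where 38.5% of all genes were higher for the same total and 37.0% for the same nuclear total. The count of lower SF3a and SF3b genes was 0 for the same total and 1 for the same nuclear total. Sf3b3, a scaffold subunit of SF3b, had 27865 and 27955 normalized counts in the ESC libraries against 15445 and 14126 in the NPC libraries, without overlap (log2 fold change 0.92 ± 0.07, limma adjusted p = 5.9e-05).

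Of the 20 hnRNP genes, 4 were higher in ESCs and 8 lower. After rescaling to the same total 3 were higher and 10 lower, and to the same nuclear total 3 and 14. Of all genes, 43.4% were lower without rescaling, 47.1% for the same total and 48.95% for the same nuclear total. Hnrnpf, which binds G-rich sequences near splice sites, had 8190 and 7893 normalized counts in ESCs and 3532 and 3594 in NPCs, and rose by 1.17 ± 0.06 on the log2 scale (limma adjusted p = 1.0e-05). Of its close relatives, Hnrnph3 and Hnrnph1 moved the other way. Hnrnph3 had 753 and 766 normalized counts in ESCs against 2017 and 1788 in NPCs (log2 fold change -1.32 ± 0.08, limma adjusted p = 2.95e-05), and Hnrnph1 had 12291 ± 51.9 against 23636 ± 448 (SD, n = 2 each; -0.94 ± 0.06, limma adjusted p = 2.6e-05). The X-linked Hnrnph2 was higher in ESCs, by 0.39. Hnrnpc, which binds uridine tracts, was 0.79 ± 0.06 higher (limma adjusted p = 7.3e-05), whereas Hnrnpr and Hnrnpa0 were lower, with log2 fold changes of -0.89 ± 0.07 and -0.70 ± 0.09 (limma adjusted p = 7.8e-05 and 0.00065).

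Of the 11 SR protein genes 6 were higher in ESCs and 4 lower, a balance that turned with scaling, to 4 higher and 5 lower for the same total and 3 and 5 for the same nuclear total. Srsf12 showed the largest difference of all members, with 20.6 and 27.6 normalized counts in ESCs and 164 and 172 in NPCs, and a log2 fold change of -2.77 ± 0.24 (limma adjusted p = 0.00011). The log2 fold changes of Srsf7 and Srsf10 were 0.66 and 0.46, and that of Srsf4 was -0.54. Srsf1 had 28071 and 26848 normalized counts in ESCs and 25560 and 22892 in NPCs, a small difference past the threshold (0.18 ± 0.08, limma adjusted p = 0.076).

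The course of reprogramming without IFNγ was followed step by step. Consecutive steps share a population, so a high or low value there enters both neighbouring steps. At day 2, 38 members were lower than in NPCs and 2 higher, where 37.6% of all genes were lower and 31.6% higher, and the median log2 fold change was -0.29 for the members and -0.08 for all genes. Without day 2 control replicate 1 the medians were -0.29 and -0.09. Fewer members and a smaller share of all genes were called lower in that fit, where the lone remaining library is assumed to vary like the NPC libraries. Rescaled to the same nuclear total, 33 members were lower and 3 higher, where 34.3% of all genes were lower and 34.7% higher. DESeq2 called 27 members lower and edgeR 31, where 28.8% and 33.7% of all genes were lower. Among hnRNP genes 19 of 20 were lower without rescaling and the other, Hnrnpf, was higher (0.36 ± 0.08, limma adjusted p = 0.0077). For the same nuclear total 16 hnRNP genes were lower and 1 higher. Hnrnph3 and Hnrnph1 were lower by -1.48 ± 0.11 and -1.03 ± 0.08 (limma adjusted p = 0.00016 and 0.00021), and Srsf12 fell from 164 and 172 to 13.2 and 14.9 normalized counts (-3.49 ± 0.24, limma adjusted p = 0.00013). Snrpa1 was higher by 0.24 ± 0.07 (limma adjusted p = 0.035). The Y-linked sum given above was higher in the day 2 control libraries than in NPCs, whereas the fibroblast sums of the 2 populations overlapped, and their part in these differences was not tested. In such bulk samples, fewer cells of a type and less RNA per cell cannot be told apart.

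From day 2 to day 5, 26 members were higher and 3 lower, where 34.9% of all genes were higher and 35.6% lower. After rescaling to the same total the split was 14 to 8, where 28.1% of all genes were higher and 41.4% lower. For the same nuclear total it was 16 to 8, where 29.2% of all genes were higher and 40.3% lower. The median of all genes moved from 0.00 to -0.13 and -0.10. Relative to it the members lay 0.15, 0.16 and 0.16 higher. Without day 2 control replicate 1 the median log2 fold change was 0.13 for the members and 0.02 for all genes. Without day 5 control replicate 2 the medians were 0.10 and -0.02. In both of these fits fewer members were called higher, at a rate near that of all genes. Hnrnpa3 rose from 1512 ± 124 to 3161 ± 225 normalized counts (SD, n = 2 each; log2 fold change 1.06 ± 0.09, limma adjusted p = 5.4e-05), and Hnrnpa2b1, which sorts RNAs for transport, rose from 9933 ± 569 to 19190 ± 1900 (0.95 ± 0.08, limma adjusted p = 7.0e-05). The largest log2 fold change was that of Srsf12, at its low level, with 1.07 ± 0.33 (limma adjusted p = 0.025). Lower genes were Hnrnpr, Sf3b6 and Hnrnph2, with -0.30 ± 0.10, -0.26 ± 0.07 and -0.20 ± 0.08 (limma adjusted p = 0.027, 0.013 and 0.053).

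Day 7 X-GFP-negative control cells, which lacked the X-GFP signal, were then compared with day 5 control cells. Here 42 members were lower and 4 higher, where 29.5% of all genes were lower and 34.2% higher, and the median log2 fold change was -0.47 for the members against 0.04 for all genes. All 7 Sm core genes, 9 of 11 SR protein genes, 7 of 9 SF3a and SF3b genes and 17 of 20 hnRNP genes were lower. Srsf1 fell from 16477 and 18081 normalized counts to 5895 and 6800 (-1.45 ± 0.08, limma adjusted p = 3.4e-05). Hnrnpa2b1 fell from 19190 ± 1900 to 6333 ± 226 (SD, n = 2 each; -1.60 ± 0.08, limma adjusted p = 2.1e-05). Snrpd3 fell from 1108 ± 46.4 to 432 ± 43.0 (-1.36 ± 0.11, limma adjusted p = 6.4e-05).

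The higher members in this step were Sf3b1, Hnrnph3, Srsf12 and Hnrnpc. Sf3b1, the subunit that clamps the branch point, rose from 15443 ± 71.6 to 23951 ± 1245 normalized counts (SD, n = 2 each; 0.63 ± 0.06, limma adjusted p = 0.00011). Hnrnph3 was higher by 0.46 ± 0.10 and Srsf12 by 0.71 ± 0.26 (limma adjusted p = 0.0043 and 0.048). The summed level of 12 proliferation genes was also lower in the X-GFP-negative control cells, at 86184 and 91159, than in day 5 control cells, at 114750 and 120630. The sum of the 8 fibroblast genes was higher, at 5066 and 4443 against 2574 and 1712 at day 5. The part of both in these differences was not tested.

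Within the control cells of day 7, X-GFP-high cells had 42 members higher and 2 lower than X-GFP-negative cells, where 34.7% of all genes were higher and 39.3% lower. The median log2 fold change was 0.42 for the members and -0.04 for all genes. Srsf2 had 9024 and 9453 normalized counts in X-GFP-high and 4295 and 4651 in X-GFP-negative cells (1.05 ± 0.06, limma adjusted p = 9.7e-08). Srsf1 and Srsf7 were higher by 1.04 ± 0.08 and 1.03 ± 0.06 (limma adjusted p = 6.4e-07 and 6.4e-08). The 2 lower genes had small values, -0.22 ± 0.08 for Hnrnpul2 and -0.11 ± 0.05 for Sf3b2 (limma adjusted p = 0.021 and 0.085), and neither passed the test after rescaling to the same total. The proliferation sum was 145300 and 148640 in the X-GFP-high control cells. Their fibroblast sum was 2614 and 2125 against 5066 and 4443 in X-GFP-negative control cells, and their mitochondrial share 15.0% and 15.1% against 20.7% and 20.5%. The part of these in the differences was not tested.

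The final comparison of the course set ESCs against X-GFP-high control cells. In ESCs 41 members were higher and 7 lower, where 37.8% of all genes were higher and 37.9% lower, with a median of 0.45 for the members and 0.00 for all genes. Fewer members were called lower when any single library was left out, and the share of all genes called lower also fell. The medians were 0.44 for the members and -0.01 for all genes without ESC replicate 1. Without X-GFP-high control replicate 2 they were 0.44 and 0.02. Sf3b3 was higher by 1.30 ± 0.05 (limma adjusted p = 1.2e-10), with 10848 and 11861 normalized counts in the X-GFP-high control libraries. Srsf1 and Hnrnpm were higher by 1.08 ± 0.06 and 1.03 ± 0.05 (limma adjusted p = 2.5e-09 and 8.7e-10). The largest decreases were those of Srsf12, Hnrnph3 and Srsf5, with -0.70 ± 0.28, -0.67 ± 0.07 and -0.32 ± 0.05 (limma adjusted p = 0.037, 1.4e-06 and 4.1e-05). The calls of Srsf12 in this step, from day 2 to day 5 and from day 5 to X-GFP-negative cells were not past the threshold in DESeq2.

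**Figure D3:**
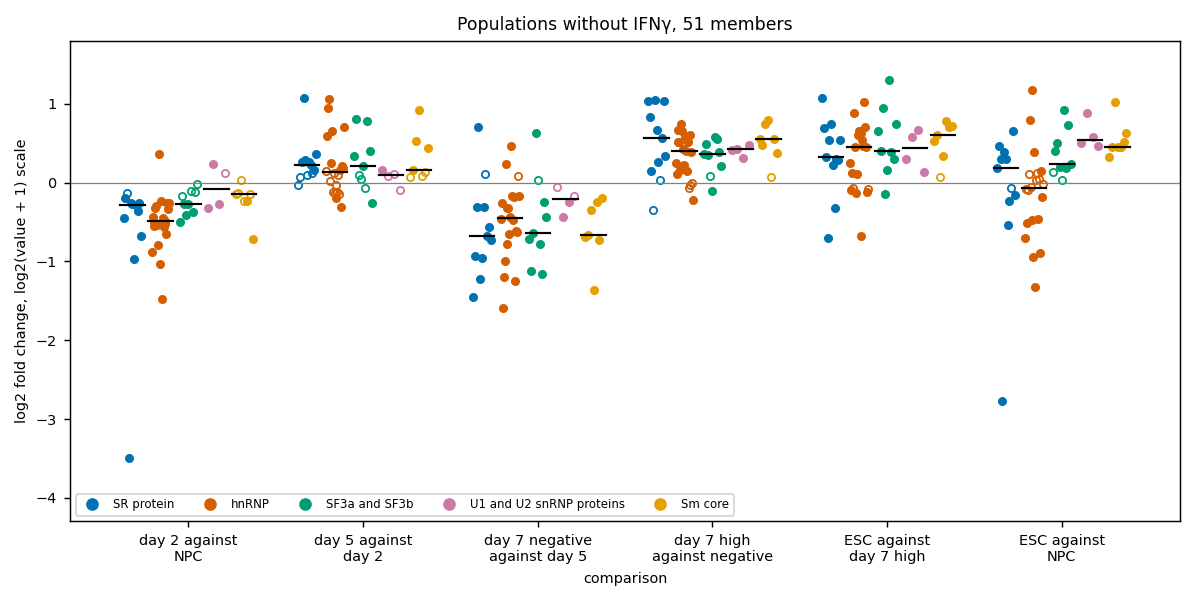
Log2 fold change of each of the 51 genes on the log2(value + 1) scale in 6 comparisons between populations without IFNγ, coloured by role (filled, adjusted p below 0.1 in limma; open, not past it; bars, median of the role). The groups lie mostly below 0 at day 2 and in day 7 X-GFP-negative cells and mostly above 0 in the X-GFP-high cells and in ESCs, with Srsf12 at -3.49 and -2.77 as the lowest points.

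**Figure D4:**
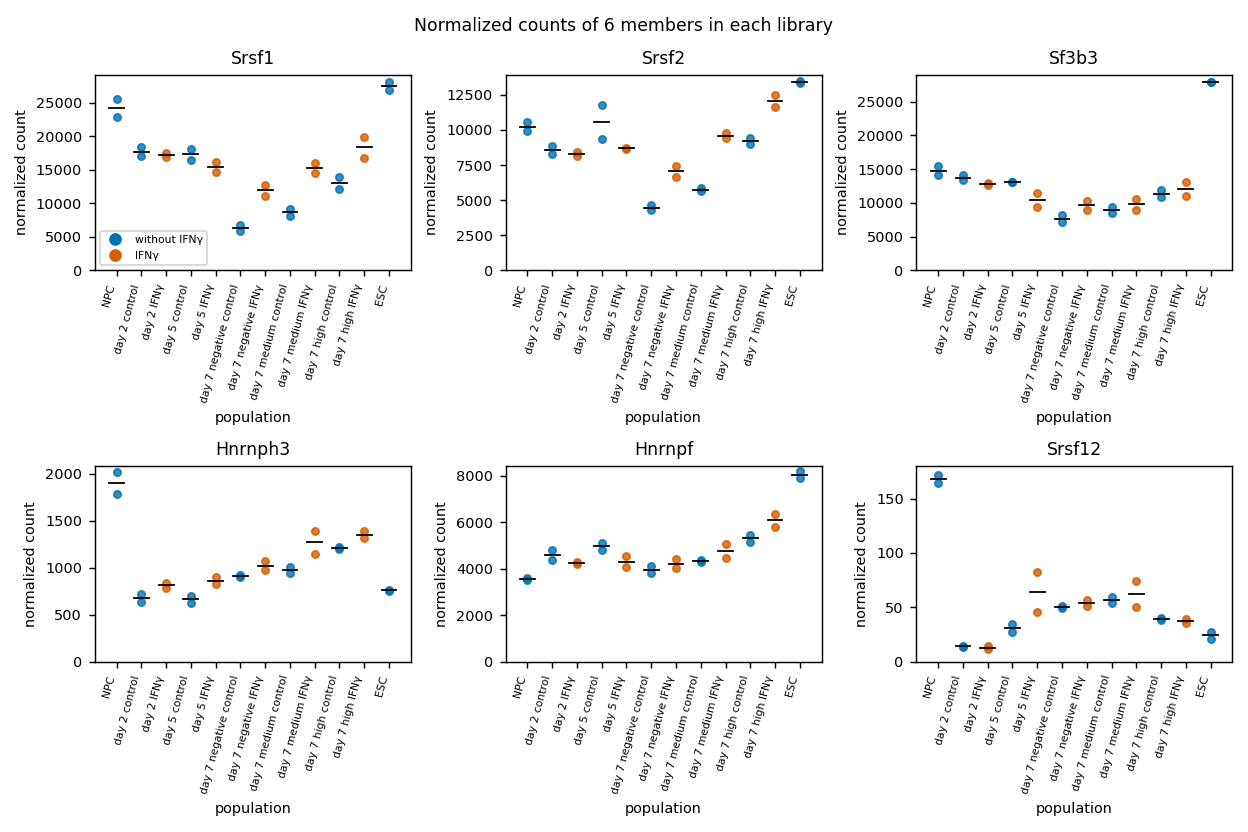
Normalized counts of Srsf1, Srsf2, Sf3b3, Hnrnph3, Hnrnpf and Srsf12 in each library of the 12 populations on linear axes from 0 (points, libraries, blue without IFNγ and orange with IFNγ; bars, mean of 2 libraries). Srsf1 and Srsf2 are lowest in day 7 X-GFP-negative control cells, Sf3b3 and Hnrnpf are highest in ESCs, and Hnrnph3 and Srsf12 are highest in NPCs.

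IFNγ was then compared with control at each time. At day 2 the only call was Srsf4, with 1217 ± 12.2 normalized counts in treated and 935 ± 70.5 in control cells (SD, n = 2 each; 0.38 ± 0.08, limma adjusted p = 0.047), against a background of 5.03% of genes higher and 3.45% lower. Srsf4 did not pass the test without a filter on low values (limma adjusted p = 0.11), nor when day 2 control replicate 1 or either treated library was left out. The medians were 0.01 for the members and 0.01 for all genes. The fibroblast sum given above was lower in treated than in control cells at day 2, and its part was not tested. At day 5 no member passed in limma, where 1.65% of all genes were higher and 0.535% lower. At an unadjusted p below 0.05 limma counted 9 members, and 2839 of all 15133 genes, a similar rate. DESeq2 called 1 member lower, where 2.35% of all genes were lower, and edgeR called 0. Without day 5 IFNγ replicate 1 the median log2 fold change was -0.12 for the members and 0.00 for all genes. With all 24 libraries in 1 fit limma called 2 higher and 6 lower, where 8.75% of all genes were higher and 6.64% lower. Of the 51 log2 fold changes at day 5, 9 were positive, with a median of -0.09. Srsf1 had 16197 and 14685 normalized counts in treated cells at day 5 and 16477 and 18081 in control cells.

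At day 7, after IFNγ had been withdrawn, most members were higher in treated cells of all 3 populations. The control libraries here are those of the steps above. In X-GFP-negative cells 35 of 51 were higher and 2 lower, where 31.1% of all genes were higher and 30.8% lower. The median log2 fold change was 0.30 for the members and 0.02 for all genes. Rescaling to the same total moved the median of all genes to 0.17. The split of the members became 45 higher and 0 lower, where 43.5% of all genes were higher and 22.1% lower. Relative to the median of all genes the members lay 0.29 higher in both scalings. In X-GFP-medium cells 34 were higher and 1 lower, where 33.3% of all genes were higher and 29.6% lower, with medians of 0.27 and 0.04. In X-GFP-high cells 32 were higher and 0 lower, where 18.1% of all genes were higher and 20.4% lower, with medians of 0.21 and 0.03. Rescaled to the same total, 24 were higher and 0 lower there, where 16.5% of all genes were higher and 20.9% lower. For the same nuclear total 28 were higher and 0 lower, where 16.7% of all genes were higher and 21.5% lower.

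The count of members called in X-GFP-high cells changed widely when single libraries were left out, and the share of all genes called changed too. These fits leave 1 library in an arm, so effect sizes are given here. The median log2 fold change of the members was 0.19 without control replicate 1 and 0.23 without control replicate 2. It was 0.26 without IFNγ replicate 1 and 0.14 without IFNγ replicate 2. The medians of all genes were 0.01, 0.03, 0.01 and 0.03. With no filter on low values 15 members were higher, where 6.85% of all genes were higher. DESeq2 called 24 members higher in X-GFP-high cells and edgeR 31, where 10.2% and 17.4% of all genes were higher. Neither called any member lower. At an unadjusted p below 0.05 limma counted 33 members, and 6427 of all 15598 genes.

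SR protein genes made up the group with the largest median. Of the 11, 9 were higher in the negative, 10 in the medium and 8 in the high population, with median log2 fold changes of 0.60, 0.58 and 0.27, and none was lower. Srsf1 had 5895 and 6800 normalized counts in X-GFP-negative control cells and 11115 and 12750 in treated cells, a log2 fold change of 0.91 ± 0.09 (limma adjusted p = 3.4e-05). Its counts in X-GFP-medium cells were 8158 and 9162 against 14584 and 15997 (0.82 ± 0.07, limma adjusted p = 1.1e-05), and in X-GFP-high cells 12185 and 13896 against 16764 and 19856 (0.49 ± 0.09, limma adjusted p = 0.0022). No treated library overlapped with the control libraries of its population.

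Srsf2, which binds exonic enhancers and also acts in transcription elongation, had 5637 and 5876 normalized counts in X-GFP-medium control cells and 9421 and 9775 in treated cells (0.74 ± 0.06, limma adjusted p = 4.7e-06). Its log2 fold changes in the negative and high populations were 0.65 ± 0.07 and 0.38 ± 0.07 (limma adjusted p = 8.8e-05 and 0.0017). Srsf10, a regulator that depends on its phosphorylation state, differed by 0.67 ± 0.07, 0.72 ± 0.06 and 0.40 ± 0.08 in the negative, medium and high populations (limma adjusted p = 5.5e-05, 5.7e-06 and 0.0024). For Srsf3, the smallest SR protein, the values were 0.65 ± 0.06, 0.64 ± 0.06 and 0.38 ± 0.08 (limma adjusted p = 3.7e-05, 1.2e-05 and 0.0034). Srsf9 was higher by 0.72 ± 0.08 in X-GFP-negative cells (limma adjusted p = 7.9e-05), with 1866 ± 72.4 against 1135 ± 77.2 normalized counts (SD, n = 2 each). Srsf6, Srsf7 and Srsf9 were higher in each of the 3 populations, and Srsf4, Srsf5 and Srsf11 each in 2 of them. Srsf12 passed in none, with log2 fold changes of 0.10, 0.09 and -0.07.

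Of the 20 hnRNP genes, 12 were higher in the negative, 15 in the medium and 14 in the high population. Rescaled to the same total these counts were 17, 15 and 9, and to the same nuclear total 17, 15 and 12. Hnrnpd, also known as AUF1, which binds AU-rich elements and affects mRNA stability, was higher by 0.54 ± 0.07, 0.61 ± 0.06 and 0.37 ± 0.10 in the 3 populations (limma adjusted p = 0.00020, 2.5e-05 and 0.021). In X-GFP-high cells it did not pass without control replicate 1 or without a filter on low values. Hnrnpm was higher by 0.66, 0.49 and 0.42, the last with 5674 ± 915 against 4205 ± 177 normalized counts (SD, n = 2 each; 0.42 ± 0.10, limma adjusted p = 0.0061), and Hnrnph1 and Hnrnpa2b1 were also higher in each. Hnrnpab, Hnrnpa0, Hnrnpa3, Hnrnpdl, Hnrnpl, Hnrnpr and Hnrnpu were higher in all 3 as well. Hnrnpll passed in 2 populations, as did Hnrnpk and Hnrnph2, Hnrnpf in 1 and Hnrnph3 in 1.

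Hnrnpc was the lower hnRNP in X-GFP-negative cells, with 9404 and 9404 normalized counts in treated and 11229 and 10686 in control cells (-0.22 ± 0.06, limma adjusted p = 0.0091). It did not pass after either rescaling. Hnrnpa1, Hnrnpul1 and Hnrnpul2 passed the test in none of the 3 populations, with log2 fold changes between -0.10 and 0.11.

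Of the 9 SF3a and SF3b genes, 7, 5 and 5 were higher in the negative, medium and high populations. In the high population 3 were higher after rescaling to the same total and 4 to the same nuclear total, and the other 2 counts did not change. Without rescaling the genes were as follows. Sf3a3, Sf3b4 and Sf3b5 were higher in all 3, while Sf3a1 and Sf3b6 were higher in the negative and high populations and Sf3a2 in the negative and medium ones. Sf3b3 passed in X-GFP-negative cells, with log2 fold changes of 0.34, 0.12 and 0.08 in the 3 populations. Sf3b1 was lower in X-GFP-negative cells (-0.13 ± 0.06, limma adjusted p = 0.0997), where rescaling to the same total gave 0.03, and higher in X-GFP-medium cells. Sf3b2 was lower in X-GFP-medium cells, with 10558 ± 23.4 against 11471 ± 98.2 normalized counts (SD, n = 2 each; -0.12 ± 0.05, limma adjusted p = 0.088), a call lost without either control library or without a filter on low values.

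The 7 Sm core genes were all higher in the negative population, and 4 were higher in the medium and 4 in the high population. Snrpd3 had 1016 ± 47.3 normalized counts in treated and 751 ± 1.71 in control X-GFP-high cells (SD, n = 2 each; 0.44 ± 0.09, limma adjusted p = 0.0029). Among the U1 and U2 protein genes 0, 0 and 1 of 4 passed, the last being Snrpb2 in X-GFP-high cells. Their log2 fold changes ranged from 0.07 to 0.14 in X-GFP-negative cells and from -0.12 to 0.06 in X-GFP-medium cells. After either rescaling all 4 passed as higher in X-GFP-negative cells, with a median of 0.26 for the same total and 0.22 for the same nuclear total. Of all genes, 43.5% and 40.3% were higher there in the 2 rescalings. After either rescaling 1 of 4, Snrpa1, passed as lower in X-GFP-medium cells and the call in X-GFP-high cells was lost.

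Other marker lists moved at day 7 too. The sum of the 12 proliferation genes, none of them at 0, was 86184 and 91159 in control and 112910 and 118770 in treated X-GFP-negative cells, 108930 and 110510 against 136750 and 144520 in X-GFP-medium cells, and 145300 and 148640 against 153290 and 159810 in X-GFP-high cells. The sum of the 6 ESC markers was 67879 and 69365 in control and 97353 and 93162 in treated X-GFP-medium cells. The sum of the 8 fibroblast genes was lower in treated cells, with 5066 and 4443 against 1035 and 1026 in X-GFP-negative cells and 5612 and 5042 against 690 and 743 in X-GFP-medium cells, and 2614 and 2125 against 612 and 686 in X-GFP-high cells. The sum of the Y-linked genes was at most 12.5 in each of these libraries. The mitochondrial share was 20.7% and 20.5% in control against 19.0% and 18.1% in treated X-GFP-negative cells, but overlapped between the arms elsewhere, with 18.4% and 18.5% against 19.2% and 18.2% in X-GFP-medium cells and 15.0% and 15.1% against 16.3% and 13.5% in X-GFP-high cells. The part of these in the member differences was not tested.

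**Figure D5:**
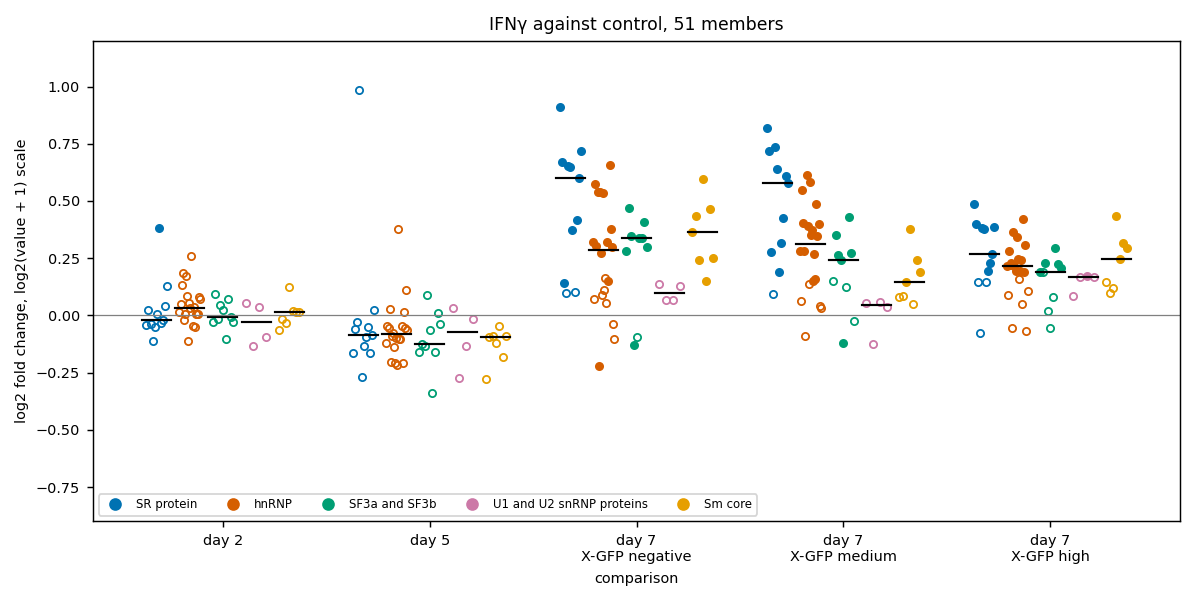
Log2 fold change of IFNγ-treated against control cells for each of the 51 genes on the log2(value + 1) scale at day 2, day 5 and in the 3 day 7 populations, coloured by role (filled, adjusted p below 0.1 in limma; open, not past it; bars, median of the role). Most points lie near 0 at day 2 and day 5, except Srsf12 at 0.98 on day 5, which was not past the threshold, and at day 7 most lie above 0, with Srsf1 highest at 0.91, 0.82 and 0.49.

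The difference of the IFNγ effect between day 7 populations was tested as an interaction in the 8 libraries of each pair. For the medium against the negative population 2 members had a larger effect and 1 a smaller effect in X-GFP-medium cells, where 7.31% of all genes were higher and 8.36% lower. Sf3b1 differed by 0.37 ± 0.08 (limma adjusted p = 0.020), Hnrnph2 by 0.24 ± 0.08 (limma adjusted p = 0.084) and Snrpd1 by -0.35 ± 0.12 (limma adjusted p = 0.097). Rescaling to the same total gave 0 larger and 12 smaller, where 2.56% of all genes were higher and 18.4% lower. The median of all genes moved from 0.00 to -0.16, and relative to it the members lay at -0.03 in both scalings. For the high against the medium population 1 member had a larger and 3 a smaller effect in X-GFP-high cells, where 4.71% of all genes were higher and 8.06% lower. These were the SR protein genes Srsf2, Srsf7 and Srsf10, with -0.36 ± 0.08, -0.34 ± 0.08 and -0.32 ± 0.10 (limma adjusted p = 0.031, 0.032 and 0.075), and Snrpa1 with 0.29 ± 0.09 (limma adjusted p = 0.072), which is named although it lies outside the naming rule.

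Hnrnph2 was the only X-linked member in the table of allelic proportions, which lists 316 X-linked genes with 1 value per population and no read numbers, so its error is unknown. Its X mus proportion, the fraction of allele-specific reads from the X chromosome that is silent in NPCs, was 0.461 in ESCs and 0.0455 in NPCs, against medians of all listed genes of 0.481 and 0.00107. It was listed at 0 at day 2, day 5 and in day 7 X-GFP-negative cells of both arms. In X-GFP-medium cells it was 0.0714 in control and 0.460 in IFNγ-treated cells, against medians of 0.110 and 0.236, and in X-GFP-high cells 0.568 and 0.229, against medians of 0.336 and 0.396. Its total normalized count in both of these populations was higher with IFNγ by 0.35 and 0.25 on the log2 scale.

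A further 136 genes of splicing, on 7 lists, were counted beside the members. In ESCs against NPCs 77 of 135 tested were higher and 38 lower, where 42.2% of all genes were higher and 43.4% lower. On the list of the tri-snRNP, NTC and catalytic factors 32 of 39 were higher and 2 lower, and among 29 regulators of alternative splicing 9 were higher and 18 lower. The largest differences there were those of Esrp1 and Esrp2, epithelial splicing regulators, with 420.1 ± 39.6 and 402 ± 3.18 normalized counts in ESCs against 7.70 ± 4.02 and 8.63 ± 3.95 in NPCs, and of Celf2 and Rbfox1, regulators active in neural cells, with 74.5 ± 1.69 and 1.95 ± 1.41 against 2708 ± 144 and 98.9 ± 34.0 (SD, n = 2 each). The limma log2 fold changes were 5.67, 5.45, -5.17 and -5.13.

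With IFNγ at day 2, 0 of 136 tested were higher and 2 lower, where 5.03% of all genes were higher and 3.45% lower. At day 5, 0 of 133 were higher and 1 lower, where 1.65% of all genes were higher and 0.535% lower. At day 7, 54 of 132 tested were higher and 24 lower in the negative population, where 31.1% of all genes were higher and 30.8% lower. In the medium population 59 of 132 were higher and 22 lower, against 33.3% and 29.6%, and in the high population 40 of 133 were higher and 12 lower, against 18.1% and 20.4%. On the list of SF3b and U2 associated factors under other symbols 8, 7 and 6 of 12 were higher. Of the tri-snRNP, NTC and catalytic factors 9, 10 and 11 of 39 were higher and 7, 8 and 3 lower, so that in the negative and medium populations the count of higher genes was below the share over all genes. In X-GFP-medium cells the largest increases were those of the neural splicing regulator Nova1, at a low level, and of Rbmx, an X-linked hnRNP, with log2 fold changes of 1.64 ± 0.30 and 0.96 ± 0.11 (limma adjusted p = 0.0011 and 5.0e-05). The largest decreases were those of Mbnl3 and Celf2, with -1.43 ± 0.19 and -1.41 ± 0.11 (limma adjusted p = 0.00012 and 4.9e-06).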

How the data were processed

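Values were the normalized counts, a signal that the authors deposited after aligning reads to a masked mm10 genome (STAR, WASP), counting with HTSeq 0.6.1 and division by DESeq2 size factors. In every library 100% of values were whole multiples of 1 step within 0.001, and the whole reads were recovered. The allelic values that the authors deposited are X mus fractions per gene, with 1 column per population. Symbols came from GENCODE vM21, in which 95.2% of identifiers were found, and the release the authors used may differ.

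Comparisons used limma 3.58.1 under R 4.3.3 (lmFit, eBayes with trend) on log2(value + 1), which understates changes of low genes, in the 4 libraries of each comparison (8 for interactions). Tests were two-sided and covered genes with a mean above 10, with Benjamini-Hochberg adjustment and a threshold of 0.1. The scripts were first run on simulated data with known changes. Libraries held at least 24746109 reads on genes, which sets the counting error.

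Alternatives were a pseudocount of 0.1, no filter, 2 rescalings, all 24 libraries in 1 fit, a replicate block, DESeq2 1.42.0 and edgeR 4.0.16 on whole reads, and the omission of each library in turn. The members and lists were chosen with earlier results of these data known. Statistics are given for the 3 members with the largest increase and decrease past the threshold without overlap (5 in 2 comparisons). Values of Srsf2, Srsf3, Srsf10 and Hnrnpd in further day 7 populations, of Snrpa1 and other members quoted without a p were chosen after their values were seen. Figures used Python 3.11.15 and matplotlib 3.10.9.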

Additional observations from a re-analysis of the deposited data

Results flagged for a closer look

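The IFNγ effect differed between day 7 populations for 7 members by the interaction test. For the medium against the negative X-GFP population the difference was 0.37 for Sf3b1, 0.24 for Hnrnph2 and -0.35 for Snrpd1 on the log2 scale. For the high against the medium population it was 0.29 for Snrpa1, -0.34 for Srsf7, -0.36 for Srsf2 and -0.32 for Srsf10. These were 3 of 51 members in the first comparison, where 7.31% of all genes had a larger and 8.36% a smaller effect, and 4 of 51 in the second, where the shares were 4.71% and 8.06%, so that members were not called at a higher rate than all genes. After rescaling to the same total Sf3b1, Hnrnph2 and Snrpa1 no longer passed, and each of the 7 lost its call in at least 1 alternative or without 1 library. With 2 libraries per population, single libraries that stand apart could not be tested.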

How the results depend on the processing

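The counts of members called higher or lower held within 1.5 times under most alternatives. The share of all genes called moved with the setting as well, so a changed count is not by itself a result about the members. With no filter on low values, counts became 0 higher with IFNγ at day 2, 1 lower in X-GFP-negative, 0 lower in X-GFP-medium and 15 higher in X-GFP-high cells, and 1 higher and 0 lower (medium against negative) and 0 higher (high against medium) for the interactions. Rescaled to the same total, they were 0 lower in X-GFP-negative and 2 lower in X-GFP-medium cells with IFNγ, 14 higher and 8 lower from day 2 to day 5, 0 lower in X-GFP-high against X-GFP-negative control cells, and 0 higher and 12 lower, and 0 higher, for the interactions. Rescaled to the same nuclear total, they were 0 and 2 lower with IFNγ, 20 lower in ESCs against NPCs, 16 higher and 8 lower from day 2 to day 5, 1 lower in X-GFP-high against X-GFP-negative control cells, and 1 higher and 7 lower for medium against negative, and 18 members were highest in ESCs. Over all 24 libraries IFNγ at day 5 gave 2 higher and 6 lower, with 1 higher and 0 lower for the first interaction and 0 higher and 1 lower for the second. DESeq2 gave 1 lower with IFNγ at day 5, 1 lower in X-GFP-negative cells, 0 lower in X-GFP-high against X-GFP-negative control cells, 4 lower in ESCs against X-GFP-high cells, and 1 higher and 0 lower for the first interaction. edgeR gave 2 lower in X-GFP-medium cells with IFNγ and 1 lower in X-GFP-high against X-GFP-negative control cells. The cause was not tested beyond the shift of the median under rescaling.

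No source says that replicate numbers mark shared cultures, and with 2 pairs the correlation of same-numbered libraries, from -0.15 to 0.41, does not show it. With the replicate block, IFNγ at day 2 gave 5 higher and 1 lower, and at day 5 gave 2 higher and 8 lower, with 4 lower in X-GFP-negative and 2 lower in X-GFP-medium cells, 5 lower from day 2 to day 5, 6 lower for the first interaction and 7 lower for the second. For day 2 against NPC, a crossed block, added after seeing the data, gave 2 higher and 39 lower. Of all genes, 32.8% were higher and 39.0% lower there.

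Without 1 library each, where the lone sample of an arm is assumed to vary like the others, the counts higher and lower ranged from 0 to 1 and 0 to 0 with IFNγ at day 2, 0 to 1 and 0 to 4 at day 5, 29 to 32 and 1 to 2 in X-GFP-negative, 25 to 39 and 0 to 2 in X-GFP-medium and 8 to 40 and 0 to 0 in X-GFP-high cells. They ranged from 21 to 31 and 8 to 13 for ESC against NPC, 1 to 2 and 21 to 41 for day 2 against NPC, 17 to 28 and 1 to 5 for day 5 against day 2, 3 to 5 and 34 to 41 for X-GFP-negative against day 5, 38 to 43 and 0 to 2 for X-GFP-high against X-GFP-negative, 38 to 41 and 3 to 5 for ESC against X-GFP-high, and 1 to 2 and 0 to 5, and 0 to 3 and 0 to 9, for the interactions. The share of all genes called also moved with the omitted library, so these ranges do not show a change of the members alone. Of 75 values of named genes, 54 kept their direction and side of the threshold in every alternative. In 1 case the value reversed, that of Sf3b1 in X-GFP-negative cells with IFNγ, at 0.028 after rescaling to the same total.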
